A study of Mus musculus with 22 samples.

Results

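The insulin-like growth factor genes described here are Igf1 and Igf2, the ligands, Igf1r and Igf2r, their receptors, Ghr, the growth hormone receptor, Igfals, the acid-labile subunit, and the binding proteins Igfbp1, Igfbp2, Igfbp3 and Igfbp4. They were chosen by name, as 10 genes of the 18716 rows of the deposited expression table, and all 10 had a row. The table holds RPKM values (reads divided by gene length and by the size of the library) from polyadenylated RNA of whole mouse livers. The study asked whether transplanted hepatocytes grew under YC through loss of their mature state, and compared transcript levels of the livers. The 7 YC livers and the 8 vehicle livers came from Fah-/- mice that had received transplanted hepatocytes (named td-Hepatocytes), had been taken off NTBC, the drug that protects Fah-deficient hepatocytes, and had then been given YC or vehicle for 28 days. The 7 D0 livers were also labelled Fah-/- and are described as normal liver, with no transplant, NTBC withdrawal or agent named. The labels do not spell out YC or the td label, and give no age, sex or strain. Nothing in them says that replicates were separate animals, so p-values measure only how far these samples spread, and some of that spread may be technical. Each liver is a mixture of host and, in the YC and vehicle groups, transplanted hepatocytes with other liver cells, so fewer cells of a type and less RNA per cell cannot be told apart.

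Insulin-like growth factors are peptide hormones related to insulin. The adult hepatocyte secretes most circulating Igf1 under growth hormone, which acts through Ghr, whereas Igf2 is an imprinted growth factor of the fetus that rodent liver largely stops making after birth. In blood most of the ligand travels in a ternary complex with Igfbp3 and the Igfals product, while Igfbp1 is a short-lived binding protein whose gene is repressed by insulin. Igf1r is the signalling receptor, and Igf2r carries Igf2 to lysosomes for breakdown.

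YC livers had higher Igf2, Igfbp1 and Igf2r and lower Igf1 and Ghr than vehicle livers. Igf2, Igfbp2, Igfbp1, Igfbp4 and Igf1 were higher in vehicle livers than in D0 livers. The binding proteins Igfbp2 and Igfbp4 were high in both groups of livers at 28 days, and no difference between YC and vehicle livers passed the test for either.

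Fah, the gene whose loss defines the genotype, served as a check of the labels. It had a lowest, median and highest level of 31.5, 128 and 407 RPKM with YC, 271, 401 and 542 RPKM with vehicle and 21.1, 28.6 and 38.7 RPKM at D0. Fah was not at 0 in D0 livers, and 2 YC livers, YC 6 at 41.3 and YC 7 at 31.5 RPKM, lay near the D0 level. Transcripts of 4 Y-linked genes summed to at least 1 RPKM in 3 of 7 YC livers (YC 1, YC 2 and YC 3), 8 of 8 vehicle livers and 0 of 7 D0 livers, so presence of Y-linked transcripts and group cannot be told apart between vehicle and D0 livers. Whether those transcripts came from donor or host cells is not given by the labels. The summed RPKM of 7 hepatocyte markers spanned 31830 to 62600 with YC, 60450 to 93870 with vehicle and 50150 to 68680 at D0, so the defining markers of the labelled tissue were high in every library. Depth, recovered from the steps of low values, spanned 50300000 to 82900000 with YC, 51200000 to 71900000 with vehicle and 51200000 to 66300000 at D0, and whether it counts reads or fragments is not known.

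**Figure D1:**
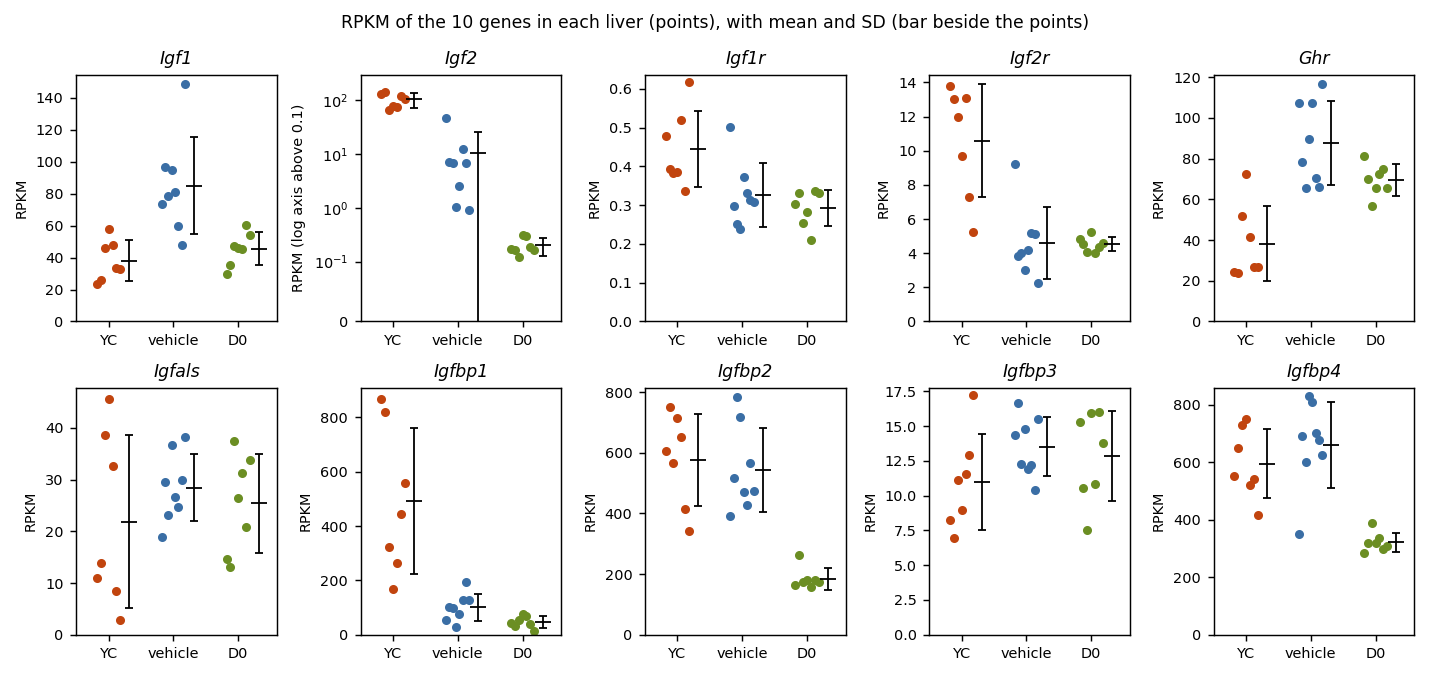
RPKM of the 10 genes in each liver (points) with the group mean and SD (bar beside the points), for 7 YC, 8 vehicle and 7 D0 livers; the Igf2 axis is logarithmic above 0.1 RPKM and linear below, and its vehicle bar extends below 0. The YC livers lie apart from vehicle livers for Igf2, and mostly below them for Igf1 and Ghr.

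The upstream sequences of Igfbp1 and Igfals are shown because these genes are textbook targets of insulin and of growth hormone in the liver. Both are the 250 bases before an annotated start on the plus strand, from RefSeq on GRCm38.p6, the build of mm10. In the first, from chr11:7197537-7197786, capitals mark the core of the insulin response element, CAAAACA, at positions -108 to -102 from the start. In the second, from chr17:24877981-24878230, before one of 3 annotated Igfals starts, capitals mark a match to TTCNNNGAA, the pattern bound by STAT5, the factor that growth hormone activates, at positions -58 to -50.
Igfbp1: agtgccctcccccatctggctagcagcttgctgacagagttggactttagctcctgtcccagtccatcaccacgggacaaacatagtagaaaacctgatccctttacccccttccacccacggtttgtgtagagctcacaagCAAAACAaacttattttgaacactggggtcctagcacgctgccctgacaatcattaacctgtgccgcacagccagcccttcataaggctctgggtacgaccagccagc
Igfals: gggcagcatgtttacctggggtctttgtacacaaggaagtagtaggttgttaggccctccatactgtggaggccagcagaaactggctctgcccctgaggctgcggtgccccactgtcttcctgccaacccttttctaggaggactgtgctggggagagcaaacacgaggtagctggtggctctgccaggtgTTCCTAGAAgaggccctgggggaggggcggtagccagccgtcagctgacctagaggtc

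Searched on both strands, CAAAACA was present in 5.56% and TTCNNNGAA in 7.02% of 32851 RefSeq promoters of this length, and such a match is a description of letters only. A further TTCNNNGAA match, TTCTCAGAA, lay at positions -236 to -228 of another Igfals start. The E-box CACGTG, held by 6.02% of promoters, was found before Igfbp2, at -142 to -137, and at 2 positions before Igf2r, -48 to -43 and -7 to -2. TATAAA, held by 12.37%, was found before Igfbp4 at -28 to -23 and on the other strand before Ghr at -188 to -183. None of these 4 patterns, which do not overlap one another in these promoters, was in the 250 bases before the annotated starts of Igf1, Igf2, Igf1r or Igfbp3.

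Differences were tested with limma on log2(RPKM + 0.5) over all genes that reached 0.5 RPKM in 7 or more libraries, with Benjamini-Hochberg adjusted p under 0.05 as the threshold for a call. Of the 10 genes 9 passed this filter and Igf1r did not. A log2 fold change on this scale understates the change of a low gene. Of the 10 genes this touches Igf2 and Igf1r, whose mean D0 levels lay below the added 0.5. It also touches genes of the lists below with such D0 levels, such as Dlk1, Asns, Cyp4a12a and Gpc3.

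Between YC and vehicle livers, 3 of the 9 tested genes were higher (Igf2, Igfbp1 and Igf2r), 2 were lower (Ghr and Igf1) and 4 did not pass the test. Over all 12537 genes tested, 44.6% were called higher and 6.14% lower. The median log2 fold change was -0.14 over the 9 genes and 0.31 over all genes. That shift depends on the scaling. Of all calls in this comparison, 87.9% were higher with the values as deposited and 51.9% after scaling each library by the median ratio of its genes, which put the median of all genes at 0.01. The 5 calls kept their direction and passed the test under both scalings, and Igfals and Igfbp3 were also called lower after the median-ratio scaling.

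Between vehicle and D0 livers, 5 of the 9 tested genes were higher (Igf2, Igfbp2, Igfbp4, Igfbp1 and Igf1) and 0 were lower. The share of all genes called was 28.2% higher and 29.9% lower, and the median log2 fold change was 0.86 over the 9 genes and 0.00 over all genes. Between YC and D0 livers, 5 of the 9 were higher (Igf2, Igfbp1, Igfbp2, Igf2r and Igfbp4) and 1 was lower (Ghr). Over all genes 41.2% were called higher and 12.3% lower, with a median log2 fold change of 0.87 over the 9 genes and 0.25 over all genes. Of the calls over all genes between YC and D0 livers, 77.1% were higher as deposited and 47.2% after median-ratio scaling. The 3 comparisons share their groups of livers, so the same libraries stand behind more than one of them.

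**Figure D2:**
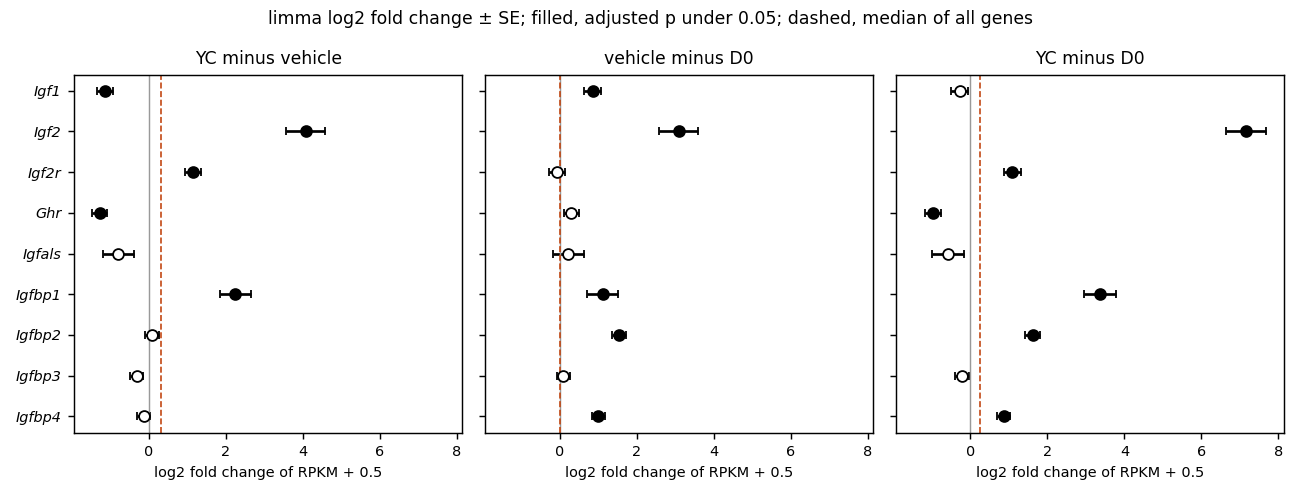
log2 fold change (limma, log2 of RPKM + 0.5) with its SE for the 9 tested genes, in 1 panel for each comparison; filled points have an adjusted p under 0.05 and the dashed line is the median of all genes. Igf2 is far to the right in all 3 panels, at 4.07, 3.09 and 7.16, and Ghr and Igf1 are to the left in the first.

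Igf2 (chr7:142650766-142666816, minus strand, GRCm38), the fetal ligand, had the largest fold change of the 9 tested genes in each comparison. Its lowest, median and highest levels were 67.1, 104 and 144 RPKM with YC, 0.897, 6.84 and 47.3 RPKM with vehicle and 0.122, 0.170 and 0.308 RPKM at D0. No YC liver overlapped with a vehicle liver and no vehicle liver overlapped with a D0 liver. Igf2 averaged 103 ± 30.2 RPKM with YC, 10.6 ± 15.3 RPKM with vehicle and 0.202 ± 0.0730 RPKM at D0 (SD, n = 7, 8 and 7). The log2 fold change was 4.07 ± 0.51 (SE) in YC over vehicle livers, with limma adjusted p = 3.18e-06, and 3.09 ± 0.51 in vehicle over D0 livers, with limma adjusted p = 2.82e-05. For YC over D0 livers it was 7.16 ± 0.52, with limma adjusted p = 3.97e-10. With 0.1 or 1 added to the values instead of 0.5, the log2 fold change of vehicle over D0 livers was 4.15 or 2.49 and that of YC over D0 livers 8.40 or 6.38. The mean vehicle level rests largely on vehicle 1 at 47.3 RPKM, since the next vehicle liver had 12.2 RPKM. Without vehicle 1, the log2 fold change was 4.50 in YC over vehicle livers and 2.66 in vehicle over D0 livers. The Igf2 locus also holds Gm49394 and Mir483 on the same strand and Igf2os on the opposite strand, and whether strand was used in counting is not given, so their reads cannot be told apart.

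Igf1 (chr10:87858265-87937042, plus strand), the growth hormone dependent ligand of the adult liver, had lowest, median and highest levels of 23.7, 33.2 and 58.0 RPKM with YC, 47.8, 80.0 and 148 RPKM with vehicle and 29.98, 45.9 and 60.3 RPKM at D0. Of the 7 YC livers 5 lay below every vehicle liver, and the YC range overlapped the D0 range. Igf1 averaged 38.2 ± 12.7 RPKM with YC, 85.1 ± 30.4 RPKM with vehicle and 45.4 ± 10.3 RPKM at D0 (SD, n = 7, 8 and 7). It was lower in YC than in vehicle livers, with a log2 fold change of -1.14 ± 0.22 (SE) and limma adjusted p = 0.000171. It was higher in vehicle than in D0 livers, with 0.86 ± 0.22 and limma adjusted p = 0.00162. The difference between YC and D0 livers was -0.28 ± 0.22, with limma adjusted p = 0.299. Igf1 was called lower in YC than in D0 livers under 2 alternatives, array weights and median-ratio scaling. The latter gave -0.62 with limma adjusted p = 0.0270. The antisense gene Igf1os overlaps Igf1, and its reads cannot be told apart without strand.

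The ratio of the ligand transcripts differed between the groups. Igf2 over Igf1 was 3.19 ± 1.85 in YC livers (SD, n = 7) with a range of 1.37 to 5.59, against 0.150 ± 0.211 with vehicle (SD, n = 8) with a range of 0.00604 to 0.645, and 0.00463 ± 0.00178 at D0 (SD, n = 7). The vehicle mean rests on vehicle 1, which had the highest ratio, and was 0.0792 ± 0.0732 (SD, n = 7) without it. In RPKM, for which the gene lengths used are not given, Igf2 exceeded Igf1 in each YC liver and in no vehicle or D0 liver. The sum of both ligands was 141 ± 19.8 RPKM with YC, 95.7 ± 29.4 RPKM with vehicle and 45.6 ± 10.3 RPKM at D0 (SD, n = 7, 8 and 7).

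Igf2r (chr17:12682406-12769664, minus strand), the clearance receptor for Igf2, had lowest, median and highest levels of 5.24, 11.99 and 13.8 RPKM with YC, 2.24, 4.08 and 9.24 RPKM with vehicle and 4.03, 4.55 and 5.21 RPKM at D0. Of the 7 YC livers 5 lay above every vehicle liver. Each YC liver was above every D0 liver, although YC 7 at 5.24 RPKM was barely so. Igf2r was higher in YC than in vehicle livers by a log2 fold change of 1.15 ± 0.21 (SE), with limma adjusted p = 0.00013. The difference between vehicle and D0 livers was -0.07 ± 0.21, with limma adjusted p = 0.802. The YC livers exceeded D0 livers by 1.08 ± 0.22, with limma adjusted p = 0.000217. Igf2r overlaps Airn, a noncoding RNA of the opposite strand, and the reads of the pair cannot be told apart without strand.

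Igf1r (chr7:67952827-68233668, plus strand), the signalling receptor, was under 1 RPKM in every library. Its lowest, median and highest levels were 0.338, 0.395 and 0.617 RPKM with YC, 0.238, 0.311 and 0.501 RPKM with vehicle and 0.211, 0.304 and 0.338 RPKM at D0. The YC range overlapped the vehicle range, and the lowest YC liver, YC 6, lay just within the D0 range. It was below the filter on low values. When that filter was dropped, its log2 fold change was 0.19 ± 0.07 (SE) in YC over vehicle livers, with limma adjusted p = 0.0389. It was 0.06 ± 0.07 in vehicle over D0 livers, with limma adjusted p = 0.573, and 0.25 ± 0.07 in YC over D0 livers, with limma adjusted p = 0.00943.

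Ghr (chr15:3317760-3583492, minus strand), the receptor through which growth hormone acts on hepatocytes, had lowest, median and highest levels of 23.7, 26.7 and 72.5 RPKM with YC, 65.5, 84.0 and 116 RPKM with vehicle and 56.7, 69.8 and 81.3 RPKM at D0. Of the 7 YC livers 6 lay below every vehicle liver, and the exception was YC 4 at 72.5 RPKM. Ghr averaged 38.1 ± 18.5 RPKM with YC, 87.7 ± 20.5 RPKM with vehicle and 69.5 ± 7.85 RPKM at D0 (SD, n = 7, 8 and 7). It was lower in YC than in vehicle livers, with a log2 fold change of -1.28 ± 0.20 (SE) and limma adjusted p = 3.00e-05, and lower in YC than in D0 livers, with -0.97 ± 0.21 and limma adjusted p = 0.00046. The difference between vehicle and D0 livers was 0.31 ± 0.20, with limma adjusted p = 0.203.

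Igfals (chr17:24865997-24882010, plus strand), the subunit that stabilises the circulating complex and whose promoter is shown above, had lowest, median and highest levels of 2.90, 13.8 and 45.6 RPKM with YC, 18.99, 28.0 and 38.2 RPKM with vehicle and 13.1, 26.4 and 37.6 RPKM at D0. The YC livers spread to both sides of the vehicle livers, with 4 below every vehicle liver and 2 above every vehicle liver. The log2 fold change was -0.80 ± 0.40 (SE) in YC over vehicle livers, with limma adjusted p = 0.102, and 0.22 ± 0.40 in vehicle over D0 livers, with limma adjusted p = 0.655. Without YC 3 or without YC 4, the first was called lower, at -1.01 with limma adjusted p = 0.0408 or -1.05 with limma adjusted p = 0.0264. It was also called lower without vehicle 1 and YC 4, at -1.13 with limma adjusted p = 0.0213, and after median-ratio scaling, at -1.13 with limma adjusted p = 0.0383. Without YC 6 and YC 7 it was -0.18, with limma adjusted p = 0.649.

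Igfbp1 (chr11:7197782-7202546, plus strand), the insulin-repressed binding protein whose promoter is shown above, had lowest, median and highest levels of 169.8, 444 and 866 RPKM with YC, 30.3, 100.1 and 195 RPKM with vehicle and 13.1, 41.5 and 77.3 RPKM at D0. Of the 7 YC livers 6 lay above every vehicle liver and all lay above every D0 liver. Igfbp1 averaged 492 ± 270.2 RPKM with YC, 101 ± 50.4 RPKM with vehicle and 46.4 ± 21.7 RPKM at D0 (SD, n = 7, 8 and 7). The log2 fold change was 2.25 ± 0.40 (SE) in YC over vehicle livers, with limma adjusted p = 9.10e-05, and 3.36 ± 0.41 in YC over D0 livers, with limma adjusted p = 3.99e-07. The vehicle livers exceeded D0 livers by 1.11 ± 0.40, with limma adjusted p = 0.0194. That call was lost without D0 7, the lowest D0 liver at 13.1 RPKM, with 0.85 and limma adjusted p = 0.0593.

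Igfbp2 (chr1:72824503-72852474, plus strand), a hepatocyte binding protein that is also made by fetal liver, had lowest, median and highest levels of 341, 607 and 750.1 RPKM with YC, 391, 495 and 782 RPKM with vehicle and 156, 176 and 263 RPKM at D0. Every YC and every vehicle liver was above every D0 liver, and YC and vehicle livers overlapped. Its log2 fold change was 1.53 ± 0.18 (SE) in vehicle over D0 livers, with limma adjusted p = 3.22e-07, and 1.61 ± 0.19 in YC over D0 livers, with limma adjusted p = 1.83e-07. In YC over vehicle livers it was 0.08 ± 0.18, with limma adjusted p = 0.739.

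Igfbp4 (chr11:99041244-99054392, plus strand), which holds ligand away from its receptor, had the highest mean RPKM of the 10 genes in every group. Its lowest, median and highest levels were 417, 554 and 751 RPKM with YC, 350.3, 685 and 832 RPKM with vehicle and 284, 319 and 387 RPKM at D0. All YC livers were above every D0 liver, while vehicle 1 at 350.3 RPKM lay within the D0 range. The log2 fold change was 1.00 ± 0.16 (SE) in vehicle over D0 livers, with limma adjusted p = 2.03e-05, and 0.87 ± 0.17 in YC over D0 livers, with limma adjusted p = 0.00016. In YC over vehicle livers it was -0.14 ± 0.16, with limma adjusted p = 0.5002, and among the alternatives run it was called lower only without vehicle 1 and YC 4, at -0.32 with limma adjusted p = 0.0402.

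Igfbp3 (chr11:7206086-7213923, minus strand), the main carrier in blood and the gene next to Igfbp1, had lowest, median and highest levels of 6.97, 11.1 and 17.2 RPKM with YC, 10.4, 13.3 and 16.6 RPKM with vehicle and 7.55, 13.8 and 16.01 RPKM at D0. The 3 groups overlapped. The log2 fold change was -0.32 ± 0.17 (SE) in YC over vehicle livers, with limma adjusted p = 0.123, 0.10 ± 0.17 in vehicle over D0 livers, with limma adjusted p = 0.648, and -0.23 ± 0.18 in YC over D0 livers, with limma adjusted p = 0.299. In rats, this gene is made in nonparenchymal liver cells rather than hepatocytes. YC 6 and YC 7 had the highest Igfbp3 among YC livers, at 12.9 and 17.2 RPKM. They also had the highest summed levels among YC livers of Kupffer cell markers, at 664 and 621 RPKM. The same held for sinusoidal endothelium markers, at 201 and 211 RPKM. Median Kupffer sums were 528 RPKM in vehicle livers and 155 RPKM in D0 livers, between which the Igfbp3 difference was 0.10 ± 0.17. The part of these cells in the Igfbp3 level was not tested. Without YC 6 and YC 7, Igfbp3 was called lower in YC than in vehicle livers, at -0.51 with limma adjusted p = 0.0139. It was also called lower without YC 7 alone, at -0.44 with limma adjusted p = 0.0306, and after median-ratio scaling, at -0.66 with limma adjusted p = 0.00745. Quantile normalization, array weights and the fit on livers with Y-linked transcripts also called it lower, at -0.68, -0.54 and -0.61, with limma adjusted p = 0.00567, 0.00707 and 0.0117. Against D0 livers, Igfbp3 was called lower in YC livers with array weights, median-ratio scaling and quantile normalization and without YC 6 and YC 7, at -0.45, -0.56, -0.52 and -0.42, with limma adjusted p = 0.0123, 0.0151, 0.0233 and 0.0432.

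RPKM is scaled to gene length, so the levels of different genes were put in order within a group. The gene lengths used are not given, so the order is approximate. By mean RPKM the order in YC livers was Igfbp4, Igfbp2, Igfbp1, Igf2, Igf1, Ghr, Igfals, Igfbp3, Igf2r and Igf1r. In that order the ranges of mean ± SD were apart between Igfbp1 and Igf2, between Igf2 and Igf1 and between Igf2r and Igf1r, and overlapped for the other neighbours. In vehicle livers it was Igfbp4, Igfbp2, Igfbp1, Ghr, Igf1, Igfals, Igfbp3, Igf2, Igf2r and Igf1r. The ranges there were apart between Igfbp2 and Igfbp1, between Igf1 and Igfals, between Igfals and Igfbp3 and between Igf2r and Igf1r. In D0 livers it was Igfbp4, Igfbp2, Ghr, Igfbp1, Igf1, Igfals, Igfbp3, Igf2r, Igf1r and Igf2, so Igf2 stood last in D0 livers and just below the 3 most abundant binding proteins in YC livers. The overlapping neighbours in D0 livers were Ghr with Igfbp1, Igfbp1 with Igf1, Igfals with Igfbp3 and Igf1r with Igf2.

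The summed RPKM of Igfbp1 to Igfbp7 was 1846 ± 316 with YC, 1510 ± 270.1 with vehicle and 637 ± 47.6 at D0 (SD, n = 7, 8 and 7). Igfbp1 made up 25.9 ± 11.6% of that sum in YC livers, with a range of 9.75% to 39.9%, against 6.84 ± 3.21% in vehicle livers and 7.24 ± 3.34% in D0 livers (SD, n = 7, 8 and 7). Igfbp4 made up 32.6 ± 6.85% in YC livers, 43.7 ± 5.96% in vehicle livers and 50.5 ± 3.20% in D0 livers. Igfbp3, the carrier of the ternary complex, stayed a small share, at 0.632 ± 0.280% in YC livers, 0.934 ± 0.288% in vehicle livers and 2.05 ± 0.613% in D0 livers. The sum of the binding proteins over the sum of both ligands was 13.1 ± 1.82 in YC livers, 17.5 ± 6.75 in vehicle livers and 14.7 ± 3.72 in D0 livers, and these ranges overlapped.

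**Figure D3:**
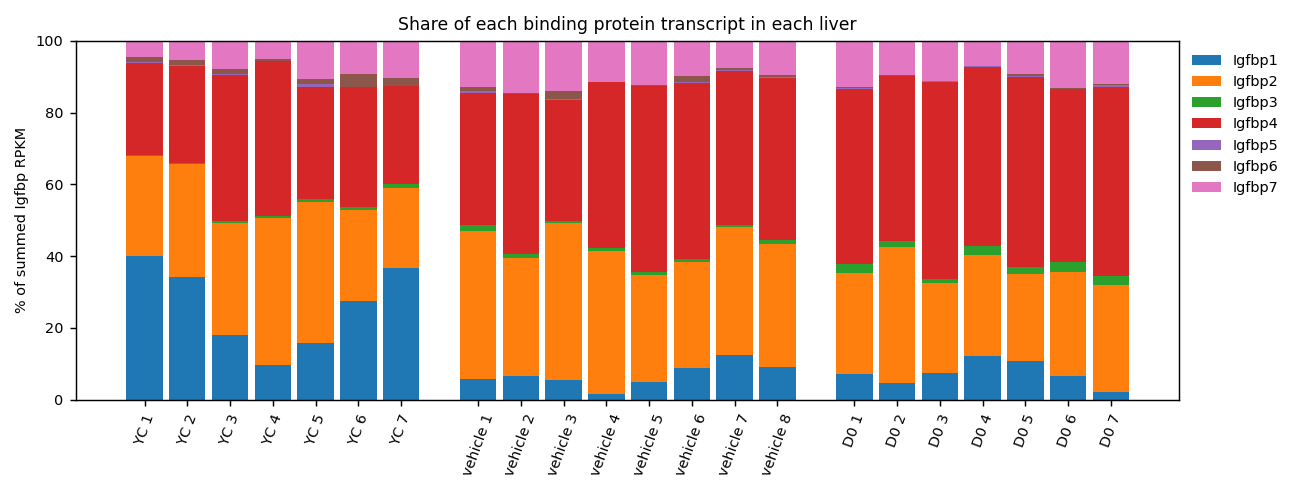
Share of each binding protein gene in the summed RPKM of Igfbp1 to Igfbp7 (%), 1 bar per liver, with YC, vehicle and D0 livers from left to right. The Igfbp1 share at the foot of the bars is 9.75% to 39.9% in YC livers and 1.68% to 12.3% in vehicle livers.

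The YC livers differed among themselves in Fah, which fell into separate levels: 31.5 and 41.3 RPKM in YC 7 and YC 6, 105 and 128 RPKM in YC 1 and YC 2, and 289.7, 291 and 407 RPKM in YC 3, YC 5 and YC 4. Because of these separate levels no correlation is given. In this order of livers, Igf1 was 32.9, 33.2, 23.7, 25.8, 45.9, 47.8 and 58.0 RPKM. Ghr was 26.7, 26.5, 24.2, 23.7, 51.8, 41.4 and 72.5 RPKM. The 3 livers with the highest Fah thus had the highest Igf1 and Ghr of the YC livers. Igfals was 2.90, 8.53, 10.98, 13.8, 38.7, 32.6 and 45.6 RPKM. Igfbp1 was 559, 444, 866, 819, 322, 265 and 169.8 RPKM. Igf2 was 104, 120.1, 133, 144, 67.1, 75.0 and 79.2 RPKM, so the same 3 livers had the lowest Igfbp1 and Igf2 of the YC livers, though their Igf2 still exceeded that of every vehicle liver. Igf2r did not follow that split, at 5.24, 7.26, 13.8, 13.0, 11.99, 13.1 and 9.70 RPKM. YC 6 and YC 7 also had the lowest hepatocyte marker sums, 33500 and 31830 RPKM, and the highest stellate cell and fibroblast sums, 453 and 679 RPKM, of the YC livers. The part of cell mixture in these differences was not tested. Without YC 6 and YC 7, Igf2, Igfbp1 and Igf2r were higher and Igf1 and Ghr lower in YC than in vehicle livers. The log2 fold changes were 4.00, 2.16, 1.41, -1.08 and -1.13 in that order.

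**Figure D4:**
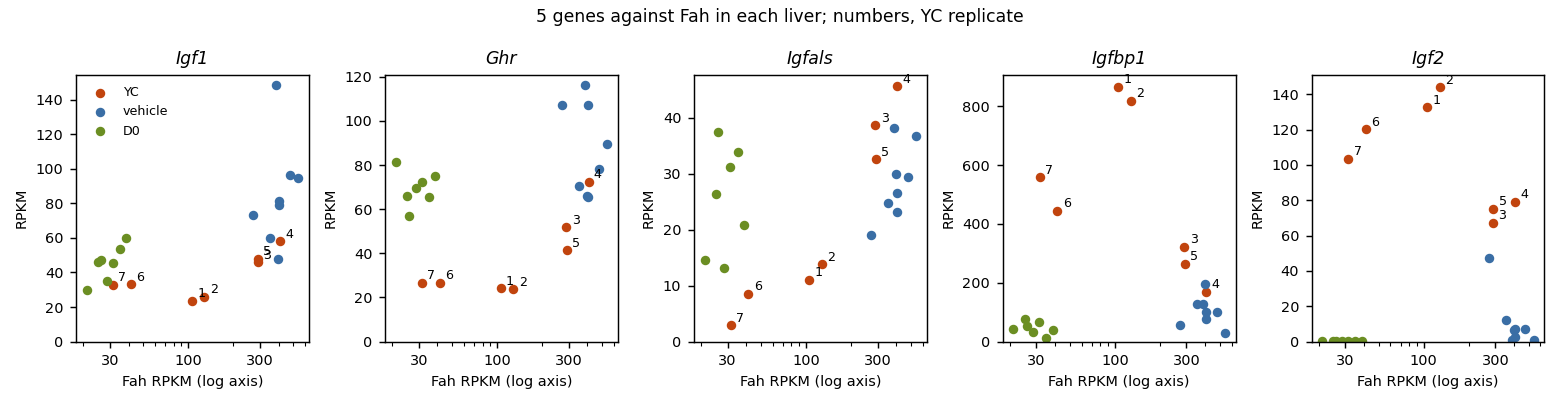
RPKM of Igf1, Ghr, Igfals, Igfbp1 and Igf2 against RPKM of Fah (log axis), 1 point per liver, with the YC livers numbered by replicate. YC 3, YC 4 and YC 5, at 289.7 RPKM of Fah or more, lie nearest the vehicle livers for Igf1, Ghr and Igfbp1.

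Restricted to livers with Y-linked transcripts, which leaves 3 YC and 8 vehicle livers, the log2 fold change of YC over vehicle livers was 4.197 for Igf2, 2.77 for Igfbp1, 1.49 for Igf2r, -1.40 for Igf1 and -1.45 for Ghr, and these 5 calls held. Markers of liver cell types were counted in the same way. Of 9 stellate cell and fibroblast markers 4 were higher and 0 lower with YC than with vehicle, of 7 Kupffer cell and macrophage markers 0 were higher and 1 lower, and of 7 hepatocyte markers 0 were higher and 3 lower. Of 7 sinusoidal endothelium markers 1 was higher and 2 were lower, of 7 bile duct markers 3 were higher and 0 lower, and of 6 neutrophil markers 3 were higher and 0 lower. The shares called higher for stellate cell, bile duct and neutrophil markers are near the 44.6% of all genes called higher. After median-ratio scaling the counts higher and lower were 2 and 1 for stellate cell, 0 and 4 for Kupffer cell, 0 and 3 for hepatocyte, 0 and 3 for endothelial, 1 and 0 for bile duct and 2 and 0 for neutrophil markers. Against D0 livers, vehicle livers had 6 of 7 Kupffer cell and 5 of 9 stellate cell markers higher. The same held for 5 of 7 bile duct and 5 of 6 neutrophil markers. Only the stellate cell list among these had a lower marker, 1 of 9. Hepatocyte markers had 1 higher and 2 lower, and endothelial markers 1 higher and 1 lower. Of all genes 28.2% were higher and 29.9% lower. Kupffer sums were 333 to 1165 RPKM in vehicle livers and 110 to 209 RPKM in D0 livers. YC livers had 6 of 7 Kupffer cell and 7 of 9 stellate cell markers higher than D0 livers. So were 7 of 7 bile duct and 6 of 6 neutrophil markers, and no marker of these lists was lower. Hepatocyte markers had 1 higher and 3 lower, and endothelial markers 1 higher and 1 lower. Of all genes 41.2% were higher and 12.3% lower in YC than in D0 livers. With median-ratio scaling, hepatocyte markers had 1 higher and 5 lower and endothelial markers 0 higher and 3 lower. Kupffer cell, stellate cell, bile duct and neutrophil markers then each had 6 higher and 0 lower. Of 12509 genes tested under that scaling, 3215 were higher and 3593 lower. The part of these cells in the results for the 10 genes was not tested.

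The other genes of the pathway were read from lists of binding proteins, proteases, growth hormone signalling, insulin receptor signalling and downstream genes. Their counts stand beside the shares of all genes called higher and lower. These were 44.6% and 6.14% in YC over vehicle livers and 28.2% and 29.9% in vehicle over D0 livers. For YC over D0 livers they were 41.2% and 12.3%. Of the other IGF-binding proteins, Igfbp6, which prefers Igf2 as its ligand, averaged 29.1 ± 14.9 RPKM with YC, 12.8 ± 13.1 RPKM with vehicle and 1.72 ± 1.49 RPKM at D0 (SD, n = 7, 8 and 7). It was the 1 of 3 tested that was higher in YC than in vehicle livers, with a log2 fold change of 1.51 ± 0.56 (SE) and limma adjusted p = 0.0292. This call was lost after median-ratio scaling, which called 0 of the 3 higher and 1 lower, and without YC 6 and YC 7. Igfbp7, a protein of vessel walls that binds ligand weakly, was at -0.35 ± 0.19 in YC over vehicle livers, with limma adjusted p = 0.118. Between vehicle and D0 livers Igfbp6 and Igfbp7 were both higher, by 2.45 ± 0.56 and 1.32 ± 0.19, with limma adjusted p = 0.000848 and 3.04e-06. The same 2 of the 3 were higher in YC than in D0 livers, by 3.97 and 0.97. Of 5 binding protein proteases and their inhibitors only Htra1, a secreted serine protease, passed the filter. It was at -0.49 ± 0.26 in YC over vehicle livers, with limma adjusted p = 0.122, and was called lower there after median-ratio scaling, at -0.78. It was higher by 1.41 ± 0.26 in vehicle than in D0 livers and by 0.92 ± 0.27 in YC than in D0 livers, with limma adjusted p = 9.12e-05 and 0.00653. Pappa, Pappa2, Stc1 and Stc2, of which the first is the protease that cleaves Igfbp4, were below the filter.

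Of 11 tested genes of growth hormone and prolactin signalling, 3 were higher and 0 lower in YC than in vehicle livers, with a list median of 0.13 against 0.31 over all genes. Jak2, the kinase bound to Ghr, averaged 7.08 ± 1.66 RPKM with YC and 3.35 ± 0.98 RPKM with vehicle (SD, n = 7 and 8), with a log2 fold change of 0.98 ± 0.15 (SE) and limma adjusted p = 2.51e-05. Socs3, a feedback inhibitor, and Stat5a, a transcription factor of the pathway, were higher by 0.72 ± 0.22 and 0.55 ± 0.17, with limma adjusted p = 0.00767 and 0.01001. Prlr, the prolactin receptor, was at -0.32 ± 0.28, with limma adjusted p = 0.349. After median-ratio scaling 1 of the 11 was higher and 0 were lower. In vehicle over D0 livers 0 were higher and 3 were lower, namely Cux2, a female-biased repressor, by -1.54 ± 0.36, Prlr by -0.97 ± 0.28 and Onecut1, a hepatocyte transcription factor, by -0.63 ± 0.23, with limma adjusted p = 0.000829, 0.00498 and 0.0219. Stat5b, the main growth hormone dependent factor of male liver, was at 0.16 ± 0.11, with limma adjusted p = 0.234. Between YC and D0 livers 3 were higher and 3 lower, led by Jak2 at 0.76, Prlr at -1.30 and Onecut1 at -0.66, and after median-ratio scaling 1 was higher and 3 lower.

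Of 7 tested liver genes that depend on growth hormone and are higher in male mice, 1 was higher and 3 were lower with YC than with vehicle, with a median of -0.49. After median-ratio scaling 0 were higher and 4 lower, with a median of -0.71, so the higher call, that of Cyp2d9, was lost. Mup20, a urinary pheromone carrier with near-identical family members among which reads may be split, averaged 195 ± 91.2 RPKM with YC and 1303 ± 1375 RPKM with vehicle (SD, n = 7 and 8), with a log2 fold change of -2.21 ± 0.47 (SE) and limma adjusted p = 0.000503. Serpina3k, a protease inhibitor, was lower by -0.74 ± 0.28 and Cyp2d9, a cytochrome P450, was higher by 0.71 ± 0.28, with limma adjusted p = 0.0288 and 0.0384. Cyp4a12a, a fatty acid hydroxylase, was at -0.21 ± 0.31, with limma adjusted p = 0.588. Among livers with Y-linked transcripts, which leaves 3 YC and 8 vehicle livers, 0 of the list were called lower in YC livers. Over all genes, 751 of 11960 tested were called lower there. With fewer livers, a lost call does not show that a difference was absent. Of the 7 genes, 5 were higher and 1 was lower in vehicle than in D0 livers. Cyp4a12a averaged 44.7 ± 30.8 RPKM in vehicle livers and 0.133 ± 0.129 RPKM in D0 livers (SD, n = 8 and 7), with a log2 fold change of 5.90 ± 0.31. Selenbp2, a selenium-binding protein, was higher by 2.19 ± 0.26 and Cyp7b1, an oxysterol hydroxylase, was lower by -1.11 ± 0.15, with limma adjusted p = 4.42e-07 and 2.14e-06. Serpina3k was at -0.03 ± 0.28 in vehicle over D0 livers, with limma adjusted p = 0.943. Against D0 livers, 4 were higher and 2 lower in YC livers, led by Cyp4a12a at 5.69, Cyp2d9 at 2.52 and Cyp7b1 at -1.08. These genes differ between male and female mice, and Y-linked transcripts and group could not be told apart between vehicle and D0 livers.

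Of 12 tested genes of insulin and IGF receptor signalling, 8 were higher and 0 lower in YC than in vehicle livers, with a median of 0.52 against 0.31 over all genes. After median-ratio scaling 3 were higher and 2 lower. Grb10, an adaptor that dampens both receptors and is itself imprinted, averaged 18.5 ± 10.3 RPKM with YC and 2.77 ± 1.00 RPKM with vehicle (SD, n = 7 and 8), with a log2 fold change of 2.42 ± 0.26 (SE) and limma adjusted p = 4.96e-07. Shc1, an adaptor, and Foxo3, a transcription factor inactivated by the pathway, were higher by 0.59 ± 0.10 and 0.51 ± 0.12, with limma adjusted p = 6.72e-05 and 0.00150. Akt2, the main insulin-responsive Akt kinase of liver, was at 0.16 ± 0.12, with limma adjusted p = 0.275. In vehicle over D0 livers 1 was higher, the adaptor Grb14 by 1.24 ± 0.13, and 7 were lower, led by the insulin receptor substrate Irs1 by -1.42 ± 0.16 and Shc1 by -0.71 ± 0.10, with limma adjusted p = 3.96e-08, 1.25e-07 and 4.74e-06. Against D0 livers 2 were higher in YC livers, Grb10 at 2.91 and Grb14 at 1.19, and 1 was lower, Irs1 at -0.90, whereas after median-ratio scaling 2 were higher and 6 lower. Of the 3 Igf2 mRNA-binding proteins only Igf2bp2 passed the filter, averaging 1.36 ± 0.47 RPKM with YC, 0.731 ± 0.282 RPKM with vehicle and 0.480 ± 0.130 RPKM at D0 (SD, n = 7, 8 and 7). It was higher in YC than in vehicle livers by 0.58 ± 0.16, with limma adjusted p = 0.00449, a call lost after median-ratio scaling, and was at 0.31 ± 0.16 in vehicle over D0 livers, with limma adjusted p = 0.104. It was higher in YC than in D0 livers by 0.89 ± 0.17, with limma adjusted p = 9.09e-05.

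Igf2 is a member of a network of imprinted and fetal growth genes, and 8 of 10 others on a list of that network had a row in the table. Between YC and vehicle livers 6 of the 8 were higher and 0 lower, with a median of 2.16 as deposited and 1.83 after median-ratio scaling, under which the counts were the same. Besides Grb10, Dlk1, a Notch-like ligand of fetal liver, averaged 6.90 ± 5.37 RPKM with YC and 0.841 ± 0.682 RPKM with vehicle (SD, n = 7 and 8), with a log2 fold change of 2.30 ± 0.31 (SE) and limma adjusted p = 4.82e-06. Peg3, a zinc finger protein, was higher by 2.25 ± 0.31, with limma adjusted p = 6.43e-06. Cdkn1c, an inhibitor of the cell cycle, was at 0.39 ± 0.28, with limma adjusted p = 0.251. The same list had 4 genes higher and 0 lower in vehicle than in D0 livers. Gpc3, a cell surface glypican of fetal liver, averaged 30.1 ± 15.1 RPKM in vehicle livers and 0.477 ± 0.388 RPKM in D0 livers (SD, n = 8 and 7), with a log2 fold change of 4.91 ± 0.32. Dlk1 was higher by 1.28 ± 0.31 and the zinc finger gene Plagl1 by 0.53 ± 0.15, with limma adjusted p = 0.00118 and 0.00461, while Grb10 was at 0.49 ± 0.26, with limma adjusted p = 0.109. The mean of Dlk1 in D0 livers was 0.0066 RPKM, so the added 0.5 understates its change. In YC over D0 livers 7 were higher and 0 lower, led by Gpc3 at 7.08, Dlk1 at 3.58 and Grb10 at 2.91, and Mest, an imprinted hydrolase, was at 0.25 with limma adjusted p = 0.176.

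**Figure D5:**
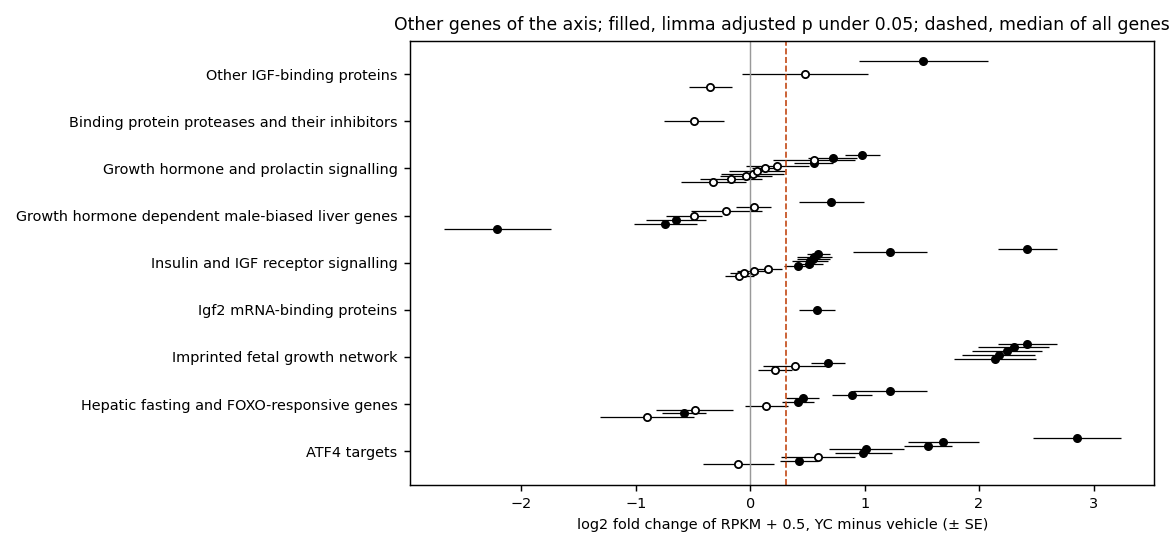
log2 fold change of YC minus vehicle livers (limma, log2 of RPKM + 0.5, bars SE) for each tested gene of the 9 lists; filled points have an adjusted p under 0.05 and the dashed line is the median of all genes, 0.31. Of the 8 imprinted network genes 5 lie at 2.14 to 2.42, and Mup20 is farthest left at -2.21.

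Igfbp1 is a known target of the fasting factor FOXO and of the stress factor ATF4, so both lists were read. Of 8 fasting and FOXO-responsive genes, 4 were higher and 1 lower in YC than in vehicle livers, with a median of 0.28. These lie near the 44.6% of all genes called higher and the median of 0.31 over all genes, and 2 were higher and 2 lower after median-ratio scaling. Sesn3 and Sesn1, stress-responsive inhibitors of growth signalling, were higher by 0.89 ± 0.17 and 0.46 ± 0.15 (SE), and Irs2, an insulin receptor substrate, by 1.22 ± 0.32, with limma adjusted p = 0.000211, 0.0112 and 0.00335. Pck1, a gluconeogenic enzyme, was at -0.49 ± 0.34, with limma adjusted p = 0.234. In vehicle over D0 livers 4 were higher and 3 lower. Pck1 averaged 927 ± 319 RPKM in vehicle livers and 31.4 ± 18.2 RPKM in D0 livers (SD, n = 8 and 7), with a log2 fold change of 4.96 ± 0.34. Trib1, a pseudokinase, was lower by -1.30 ± 0.14 and Sesn3 by -0.80 ± 0.17, with limma adjusted p = 6.84e-08 and 0.000380, while Sesn1 was at -0.18 ± 0.15, with limma adjusted p = 0.302. In YC over D0 livers 2 were higher, Pck1 at 4.48 and the coactivator Ppargc1a at 0.92, 1 was lower, Trib1 at -0.88, and the glucose-releasing enzyme G6pc was at 0.61 with limma adjusted p = 0.231.

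Of 8 ATF4 targets, 6 were higher and 0 lower in YC than in vehicle livers, with a median of 1.00. Over all genes 44.6% were higher and 6.14% lower, with a median of 0.31. Of the 8, 4 were higher and 0 lower after median-ratio scaling. Asns, asparagine synthetase, averaged 59.9 ± 28.1 RPKM with YC and 8.50 ± 5.43 RPKM with vehicle (SD, n = 7 and 8), with a log2 fold change of 2.85 ± 0.38 (SE) and limma adjusted p = 5.31e-06. Sesn2, a stress-responsive sestrin, was higher by 1.55 ± 0.21 and Fgf21, a hepatic stress hormone, by 1.69 ± 0.31, with limma adjusted p = 4.11e-06 and 0.000151. Ddit4, an inhibitor of growth signalling, was at 0.59 ± 0.33, with limma adjusted p = 0.132. In vehicle over D0 livers 2 were higher, led by Asns at 3.06 ± 0.38, and 3 were lower, among them the stress factor Ddit3 at -1.27 ± 0.16 and Sesn2 at -1.44 ± 0.21, with limma adjusted p = 7.99e-07, 9.70e-07 and 4.16e-06. These counts lie near the shares of all genes in that comparison, 28.2% higher and 29.9% lower. Fgf21 was at 0.35 ± 0.31 in vehicle over D0 livers, with limma adjusted p = 0.342. In YC over D0 livers 4 were higher, led by Asns at 5.92 and Fgf21 at 2.04, and 1 was lower, Ddit3 at -0.85 (4 and 2 after median-ratio scaling), while Ddit4 was at 0.39 with limma adjusted p = 0.337.

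The genes most like Igf2, Igfals and Igfbp1 were found by Pearson r of log2(RPKM + 0.5) over the 22 libraries among 7966 genes, as a description only. The libraries come from several groups and differ in depth, so r includes the differences between group means. Igf2 was most like Krt20, a keratin, with r = 0.987, Mogat2, an acylglycerol acyltransferase, with r = 0.982, and Serpina5, a protease inhibitor, with r = 0.979. Igfals was most like Naprt, an enzyme of NAD synthesis, with r = 0.933, Cbs, cystathionine beta-synthase, with r = 0.925, and Scly, selenocysteine lyase, with r = 0.922. Igfbp1 was most like Tulp3, with r = 0.937, Fst, which encodes follistatin, with r = 0.932, and Ndrg1, with r = 0.931. Fst averaged 6.05 RPKM in YC livers, 1.76 RPKM in vehicle livers and 0.733 RPKM in D0 livers, and Krt20 averaged 24.7, 1.84 and 0.0231 RPKM in the same order of groups.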

How the data were processed

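The deposited data are 1 table of RPKM values, with 1 column for each of 22 mouse liver libraries. Per the submitters' processing notes, the tools were TopHat 1.4.1 and Cufflinks 1.3.0 and the genome build was mm10. Neither the tool behind the values nor their annotation, filters or use of strand is given in the sources used here. Of 18716 rows, 27 had a date in place of a symbol, 2 names were repeated and 17858 matched a symbol of GENCODE mouse release 21, which gave the coordinates. Promoter sequences came from RefSeq, and all 10 genes had at least 1.

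Groups were taken from the treatment labels. Values were taken as log2(RPKM + 0.5), the 12537 genes that reached 0.5 RPKM in 7 or more libraries were tested, and one model over the 3 groups was fitted with limma 3.58.1 in R 4.3.3 (moderated, with trend and robust settings through statmod 1.5.0) and Benjamini-Hochberg adjustment, with a threshold of 0.05. The procedure was tested on simulated data. Errors are those between libraries, which the labels do not show to be separate animals, and no interval from counting error was computed. Low values move in steps of what 1 read is worth, which gave the depth, but only 176 of 760 low genes (23.2%, tolerance 0.02) came out whole in all libraries, so no count test was run. The closest replicates, D0 6 and D0 7, had a chi-square that averaged 2.47 over 46 genes, and shared 0 identical values above 0, so no library was taken as a repeat of another. Relations with Fah within vehicle livers used exact permutation tests.

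The 10 genes and the lists were chosen with earlier results of these data known. All 10 genes were described. From each list and comparison the 3 called genes with the smallest adjusted p and the uncalled gene with the highest mean were named, and for Igf2, Igfals and Igfbp1 the 3 genes with the highest Pearson r among genes whose mean reached 5 RPKM in a group. Alternatives were the pseudocount, the filter, the scaling, the model, a replicate block, the libraries left out and the libraries with or without Y-linked transcripts. The last for YC against D0 livers, and leaving out YC 1 and YC 2, were chosen after seeing the data. The labels do not say that replicate numbers pair livers, so the main model has no block.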

Additional observations from a re-analysis of the deposited data

Results flagged for a closer look

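In 3 of 30 sets of values (10 genes in each of 3 groups) 1 liver lay far from the others by Dixon's test at the 95% level. For independent, normally distributed values chance gives about 1 in 20 such sets. RPKM values of the same livers need not meet those conditions. Igf2 was 47.3 RPKM in vehicle 1, and the nearest other vehicle liver had 12.2 RPKM. Igf2r was 9.24 RPKM in the same liver, where the nearest other vehicle liver had 5.16 RPKM. Vehicle 1 also had the lowest Fah of the vehicle livers, at 271 RPKM. Igfbp2 was 263 RPKM in D0 2, and the nearest other D0 liver had 182 RPKM.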

How the results depend on the processing

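Of 989 recomputed values for single genes of the 9 tested, 970 gave the same call, 17 gained a call, 2 lost one and none reversed a call. Direction was compared only where a value was called. Some uncalled values changed sign, such as Igfbp2 in YC over vehicle livers, at 0.08 as reported and -0.27 after median-ratio scaling. Igfals gained a call between YC and vehicle livers under 4 alternatives and Igfbp3 under 6, and their values are in the report. The genes called lower between YC and vehicle livers, 2 as reported, numbered 4 with median-ratio scaling and 4 without vehicle 1 and YC 4. The genes called lower between YC and D0 livers, 1 as reported, numbered 3 with array weights, 3 with median-ratio scaling, 2 with quantile normalization and 2 without YC 6 and YC 7. Over all genes, calls between vehicle and D0 livers numbered 7278 as reported and 4664 with a mean of at least 5 RPKM required. Those between YC and D0 livers numbered 6699 as reported and 4185 with that filter, which tested fewer genes. They numbered 4426 with only libraries without Y-linked transcripts, which used fewer samples. Igf2 could not pass the filter there, which asks for 0.5 RPKM in 7 libraries. Fewer YC livers than that were left, and D0 livers reached at most 0.308 RPKM. Igf2 was 75.0 to 120.1 RPKM in the YC livers left, YC 4, YC 5, YC 6 and YC 7. The cause of the other changes was not tested. Leaving out each liver in turn gave 5564 to 6948 calls between YC and vehicle livers, 6841 to 7679 between vehicle and D0 livers and 6203 to 7004 between YC and D0 livers, with 2 to 3 of the 9 genes lower in the first comparison and 4 to 5 higher in the second. With a replicate block, the all-gene calls were 6002, 7129 and 6486 for YC over vehicle, vehicle over D0 and YC over D0 livers, the 9 genes had 3 higher and 2 lower, 4 higher and 0 lower, and 5 higher and 1 lower, and the call of Igfbp1 between vehicle and D0 livers was lost, at 1.04 with limma adjusted p = 0.0629. The labels do not say whether the numbers pair the livers. Of 21 same-numbered pairs 5 had a correlation of deviations over 0.1 (range -0.386 to 0.227), and 2 of 22 livers correlated best with their own number. Such correlations cannot show that same-numbered livers shared no donor or batch. Values are in RPKM and no count test was run, so what depth limits was not tested.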

Other observations

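Among the 8 vehicle livers, 10 relations of the genes with Fah were computed and none passed Benjamini-Hochberg adjustment over the 10 (lowest adjusted p = 0.0779, exact permutation test, two-sided). Igf1r had Pearson r = -0.85 (exact permutation p = 0.0111) and Spearman rho = -0.69 (exact permutation p = 0.0694), with r = -0.26 without the 2 livers farthest from the median of Fah. Igfbp4 had r = 0.83 (exact permutation p = 0.0156) and rho = 0.64 (exact permutation p = 0.0962), with r = 0.05 without those 2 livers. Igf2 had r = -0.74 (exact permutation p = 0.0390) and rho = -0.48 (exact permutation p = 0.243), with r = -0.02 without them, so the relation rests on those livers.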
